A study of Homo sapiens with 4 samples.

Results

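The 111 probe sets described here represent 84 genes of chromatin regulators and histones. HT29, a human colorectal adenocarcinoma cell line, was separated by FACS according to surface CD26, the peptidase product of DPP4, the brightest and dimmest 5% of events forming the CD26+ and CD26− groups, with no further treatment. Of each group 2 RNA samples were hybridised, each to its own U133 Plus 2.0 array of Affymetrix, to find the genes that differ between the sorted cells. Arrays of a group are labelled as biological replicates with no word on what separates them, so the p-values cover no more than the scatter of these 4 samples, part of which may be technical. Of the 11430 probe sets in the authors' list for 1 pair of arrays, 8414 carry a single gene symbol, and the members are those whose symbol begins with a family name such as HDAC, KDM, SETD, SMARC, ARID, CHD, KAT, MYST, MLL, BRD, CBX, DNMT, ING, PHF, HMG, EZH, ASXL, PRDM, SIRT or HIST. The list holds probe sets with a fold of 2 between CD26+ replicate 1 and CD26− replicate 1, so the members were selected on the signals of that pair, and values from it are a description. It does not hold all of them, since 11247 probe sets were at least 2-fold higher in that pair and 10400 lower, and what else decided a place in it is not given in the sources used here.

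DNA in the nucleus is wound around octamers of core histones. Enzymes write and remove acetyl and methyl groups on the histone tails, reader proteins bind these marks, and ATP-driven remodelers slide or evict the nucleosomes, which sets how accessible a gene is. In the intestine, Polycomb enzymes and SWI/SNF remodelers are known to take part in crypt cell renewal, and several of them are mutated in colorectal cancer.

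The labels and arrays set limits on every value below. DPP4, the gate of the sort, had signals of 1952 and 6465 on CD26− replicates 1 and 2 and of 6649 and 2513 on CD26+ replicates 1 and 2 with 203717_at. With 203716_s_at these were 202.9 and 867.5 against 515.9 and 548.9, highest on CD26− replicate 2. The groups overlapped with both probe sets, and the array labelled CD26− replicate 2 was not low in DPP4. Each direction between the groups rests on that label. CD26+ replicate 2 stood apart: across probe sets its log2 values had a Pearson r with each further array of only 0.289 to 0.321, beside 0.91 to 0.928 among the remaining 3, its hybridisation controls had a median of 79650 against 4689 to 6591, and the median signal was 270.3 against 76.1 to 96.7. Of 13 markers of a colon epithelial line, 8 had a named probe set, 6 of their 11 probe sets lay above the median signal on all arrays, and their summed signal was 65443.8 and 141361.8 on the CD26− arrays against 66438.7 and 7066 on the CD26+ arrays. Of the immune, endothelial and fibroblast markers, 2 of 6, 1 of 5 and 2 of 6 were named, none at 0, with sums over the 2 CD26− and then the 2 CD26+ arrays of 6783, 4488, 2379.5 and 157, of 14.4, 26.4, 39.6 and 308, and of 76.1, 435, 468 and 3872. The immune sum was nearly all LYZ, with 6560, 4328, 2311 and 97.25 in the same order, beside at most 222.8 for CD14. In the epithelial sum, 1 CDH1 probe set was highest on CD26+ replicate 2 (847.8) while the other was lowest there (27.73). Gene symbols came from the authors' list, so the named markers were selected on its pair of arrays. The part of these marker shifts in the results was not tested, and fewer cells of a type cannot be told apart from less RNA per cell. No probe set was dropped for a low value. Of the 111 members, 17 were dimmer than the array's median on each array other than CD26+ replicate 2, whatever their rank on that one. Signals are quoted as deposited, CD26− replicates 1 and 2 first and CD26+ replicates 1 and 2 after them, and words on which array was high or low refer to these signals. Counts of 2-fold gaps and of groups that do not overlap, and log2 differences (CD26+ minus CD26−), refer to quantile normalized signals with 16 added, a scale that understates differences of dim genes and on which CD26+ replicate 2 can rank lower than in the signals.

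No member passed limma. At an adjusted p under 0.05 it called 0 of the 111 members and 0 of all 54613 probe sets (0%), and the adjusted p of the members ran from 0.79 to 0.997. At an unadjusted p under 0.05, limma had 3 members higher in CD26+ cells, SMARCB1, ARID1B and HIST3H3 (2.70% of members, 1.11% of the listed and 0.665% of all probe sets), and 4 lower, ASXL1, ARID2, SMARCC2 and PHF14 (3.60%, 3.34% and 0.897%). The 0 calls do not show that no member differs: replicates scattered with a median residual SD of 0.976 (log2), against 0.374 once CD26+ replicate 2 was left out. The 2 groups did not overlap for 31 members that were higher in CD26+ cells and 24 that were lower, shares of 27.9% and 21.6%, where 20.4% and 16.2% of all probe sets and 21.7% and 25.5% of the listed ones were so separated. The pair that chose the members enters these counts and p-values, so the listed probe sets are the nearer background.

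In the pair that chose them, 65 members were higher and 46 lower on CD26+ replicate 1 than on CD26− replicate 1, where 20.6% of all probe sets were at least 2-fold higher and 19.0% at least 2-fold lower. Of the listed probe sets 50.3% were higher and 49.6% lower in this pair, beside 58.6% and 41.4% of the members. The choice used these values, so the listing by family is a description. Of the 15 histone probe sets 13 were listed as higher, as were 9 of 11 for demethylases, 5 of 6 for deacetylases and 17 of 26 for nucleosome remodelers. Of the 26 for methyltransferases and their partners 19 were listed as lower, and readers and adaptors were divided, with 8 higher and 9 lower. The member nearest the threshold was SETD6, a lysine methyltransferase, whose 1554555_a_at had a fold of 2.004, from 976 to 487. The nearest probe set outside the list, 243223_at, had a fold of 1.9999.

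CD26− replicate 2 was not used for the choice. Against it, CD26+ replicate 1 was at least 2-fold higher for 21 members (13.1% of all probe sets, 18.7% of the listed ones) and at least 2-fold lower for 15 (14.3% and 20.5%). With the values as deposited these counts were 21 and 25 (18.9% and 22.5% of members), beside 11.4% and 18.5% of all probe sets. The median difference over the members was 0.26, beside 0.04 over all probe sets. The median by family was 0.89 for histones, 0.41 for remodelers, 0.37 for deacetylases, 0.06 for demethylases and −0.40 for methyltransferases and their partners. CD26+ replicate 1 entered both comparisons, so they are not independent of each other.

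CD26+ replicate 2 and CD26− replicate 2 share no array with the choice. Between them 41 members were at least 2-fold higher (36.3% of all probe sets) and 39 at least 2-fold lower (32.1%), shares of 36.9% and 35.1% of the members that lay near those of the whole array, beside 32.2% and 40.7% of the listed probe sets. Of the 65 members listed as higher, 28 were at least 2-fold higher and 19 at least 2-fold lower in this pair, with a median log2 difference of 0.57. Of the 46 listed as lower, 13 were at least 2-fold higher and 20 at least 2-fold lower, with a median of −0.56. Over all listed probe sets the same medians were 0.24 and −0.87. By family the median was 1.88 for histones, 0.18 for remodelers, 0.91 for deacetylases and −0.96 for demethylases. It was −0.15 for methyltransferases and their partners and 0.21 over all probe sets. With 1 array on each side these counts have no test, and the split turned with the scaling, for the members as for the whole array. In the deposited values 57 were higher and 26 lower (51.4% and 23.4% of members, 53.8% and 22.2% of all probe sets). After centring each array by its median these were 29 and 47 (26.1% and 42.3% of members, 31.2% and 36.7% of all probe sets).

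**Figure D1:**
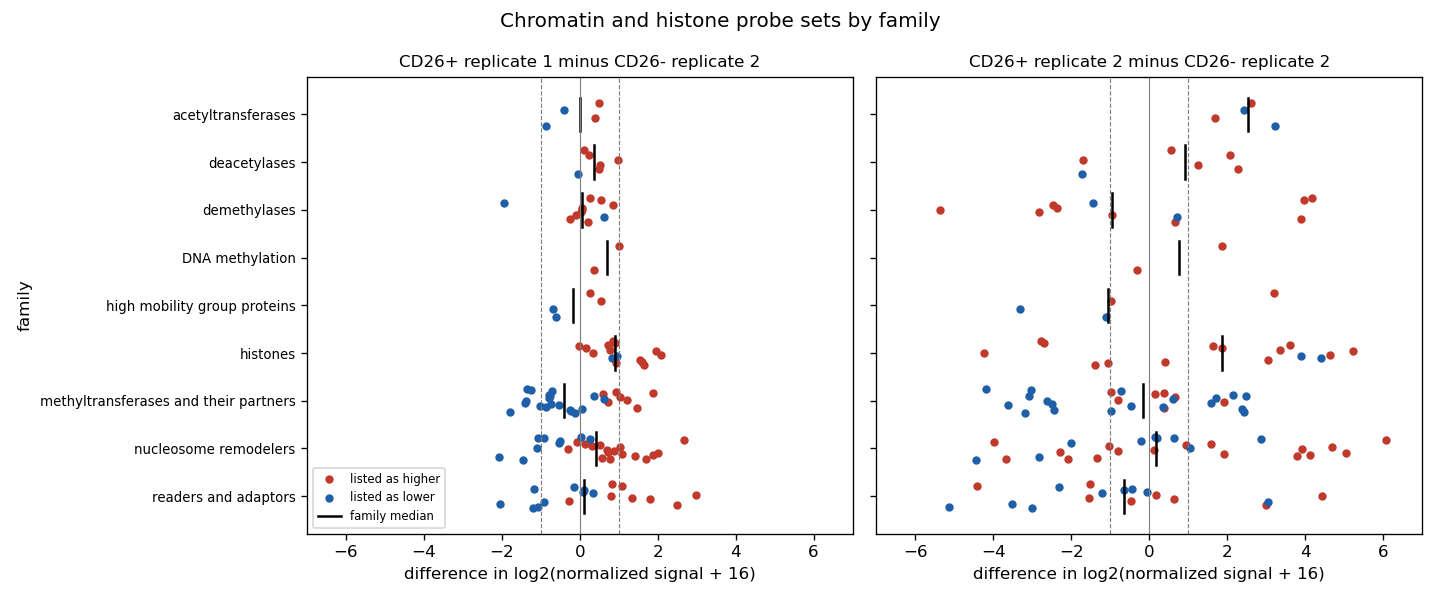
Difference in log2(normalized signal + 16) of each of the 111 probe sets by family, for CD26+ replicate 1 (left) and CD26+ replicate 2 (right), each minus CD26− replicate 2. Points are probe sets coloured by their direction in the authors' list, black bars are family medians and dashed lines mark 2-fold; on the left the histone median lay at 0.89 and that of methyltransferases and their partners at −0.40.

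Core histone genes lie in clusters, most of them on chromosome 6, and their transcripts are known largely to end in a stem-loop in place of a poly(A) tail, while the labelling kit of these arrays primes at poly(A). The genes of one histone type are nearly identical, so the assignment of a signal to 1 gene is uncertain. HIST1H4J, one of the genes for histone H4 (214463_x_at, chromosome 6, 27791869 to 27792258, build not given in the sources used here), measured 272 and 152 on the CD26− arrays against 734 and 5277 on the CD26+ arrays. Both CD26+ arrays were above both CD26− arrays, a log2 difference of 3.17 ± 1.30 (SE, n = 2 per group, limma adjusted p = 0.79), which was 1.54 if CD26+ replicate 2 was left out. HIST3H3, a testis variant of histone H3 (208572_at), had signals of 36.9 and 17.6 against 116 and 1082, a log2 difference of 2.95 ± 1.14, which was 1.67 if CD26+ replicate 2 was left out. These were the 2 histone probe sets at least 2-fold apart in every one of the 4 pairings of CD26+ with CD26− arrays.

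HIST1H2AE and HIST1H2BG, for histones H2A and H2B, are neighbours that are read in opposite directions. HIST1H2AE (214469_at) had signals of 100.1, 181, 299.6 and 1731, a log2 difference of 2.26 ± 1.12, which was 0.97 if CD26+ replicate 2 was left out. HIST1H2BG had 107, 148, 228 and 1768 with 215779_s_at, so both genes ran in the same order over the 4 arrays, with both CD26+ arrays above both CD26− arrays. The other probe set of HIST1H2BG, 210387_at, had 124, 387, 457 and 18.8 and was lowest on CD26+ replicate 2. HIST1H4H gave 73.7 and 52.2 against 163 and 829, and HIST1H2BO gave 16.6 and 38.9 against 36.4 and 444. In the signals HIST1H2BO was slightly lower on CD26+ replicate 1 than on CD26− replicate 2, and after normalization it was higher by 0.15 on the log2 scale.

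Promoters are shown for HIST1H2BG, whose window is nearly the reverse of that of its neighbour, and for HIST1H4J and HIST3H3, with the widest separation among histones. The sequences are 300-base windows from RefSeq on GRCh38.p14, 5′ to 3′, that end shortly after the start of transcription. Capitals mark TATAAA (the TATA box), CCAAT (the CCAAT box) and ATTTGCAT (the octamer of H2B genes), each on either strand.
HIST1H2BG (chr6:26216639-26216938, minus strand): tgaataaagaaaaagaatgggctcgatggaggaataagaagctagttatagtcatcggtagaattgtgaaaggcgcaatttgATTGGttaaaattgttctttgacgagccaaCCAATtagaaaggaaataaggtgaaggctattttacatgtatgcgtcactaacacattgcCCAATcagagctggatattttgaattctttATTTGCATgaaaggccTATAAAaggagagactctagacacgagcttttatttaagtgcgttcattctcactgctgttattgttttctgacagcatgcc
HIST1H4J (chr6:27823842-27824141, plus strand): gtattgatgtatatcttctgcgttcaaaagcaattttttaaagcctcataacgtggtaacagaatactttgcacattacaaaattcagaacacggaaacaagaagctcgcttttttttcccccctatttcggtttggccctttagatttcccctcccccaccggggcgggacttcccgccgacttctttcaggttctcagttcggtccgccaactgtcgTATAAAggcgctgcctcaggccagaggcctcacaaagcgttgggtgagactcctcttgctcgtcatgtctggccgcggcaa
HIST3H3 (chr1:228425311-228425610, minus strand): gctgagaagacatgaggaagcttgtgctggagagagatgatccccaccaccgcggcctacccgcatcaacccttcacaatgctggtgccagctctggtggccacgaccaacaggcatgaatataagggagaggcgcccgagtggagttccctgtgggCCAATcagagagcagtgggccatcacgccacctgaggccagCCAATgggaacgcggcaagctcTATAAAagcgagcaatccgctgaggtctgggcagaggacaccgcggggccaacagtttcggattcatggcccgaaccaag
The HIST1H2AE window overlaps that of HIST1H2BG by 268 bases, so both genes share 1 TATAAA on one strand or the other, 3 CCAAT and 1 ATTTGCAT in it. A window was found for 12 of the 14 histone genes, 13 windows in all, of which 9 held TATAAA, 10 held CCAAT and 4 held ATTTGCAT. Of all 35116 windows of this length 11.5%, 34.6% and 1.8% did. Of the 89 windows of the other members, 3, 29 and 1 held them. A match of letters is not a shown binding site.

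Histones listed as lower were HIST1H2BB and HIST1H3F. HIST1H2BB (208547_at) had signals of 43.7, 5.29, 18.9 and 595, and HIST1H3F (208506_at) of 67.1, 7.08, 20.4 and 788. In both, CD26− replicate 2 was lowest and CD26+ replicate 2 highest, and CD26+ replicate 1 lay between the 2 CD26− arrays. HIST3H2A, a histone H2A gene on chromosome 1 (221582_at), had signals of 1092, 1480.2, 2899 and 383, HIST1H3E of 104, 161, 289 and 43.1 and HIST1H3H of 112, 65.0, 229 and 64.8. In these 3 genes CD26+ replicate 1 was highest and CD26+ replicate 2 lowest, so the groups overlapped. HIST1H3E and HIST3H2A had log2 differences of −0.85 and −0.73 with all arrays and of 0.97 and 1.08 without CD26+ replicate 2. HIST1H4A gave 22.6, 7.84, 49.6 and 73.4, HIST1H4E 48.2, 68.4, 122 and 90.1, and HIST1H3J 21.1, 67.6, 54.8 and 528, and in these 3 the groups overlapped on the normalized scale. Of the 15 histone probe sets, 5 were dimmer than the array's median on each array other than CD26+ replicate 2. Of these, HIST1H4A was dimmer than the median on CD26+ replicate 2 too.

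**Figure D2:**
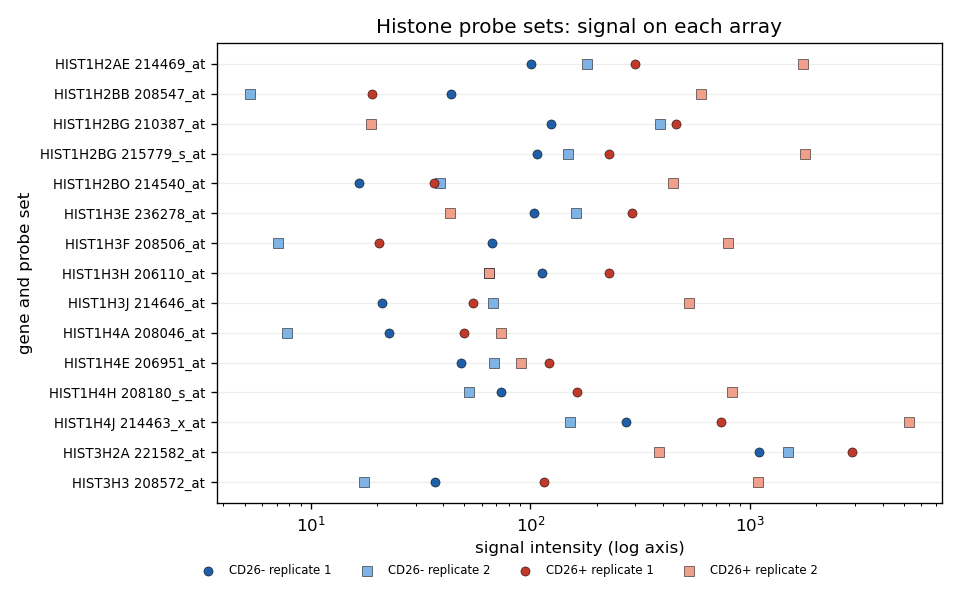
Signal intensity (log axis) of the 15 histone probe sets on each of the 4 arrays, CD26− in blue and CD26+ in red, with circles for replicate 1 and squares for replicate 2. HIST1H4J and HIST3H3 show both red points to the right of both blue points, and CD26+ replicate 2 ran from 18.8 for 210387_at to 5277 for HIST1H4J.

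The SWI/SNF complexes, which remodel nucleosomes with ATP, held members with wide gaps in both directions. SMARCB1, a core subunit (228898_s_at, chromosome 22, 24176689 to 24180593), measured 26.9 and 9.15 on the CD26− arrays against 134 and 1727 on the CD26+ arrays, a log2 difference of 3.89 ± 1.34 (SE, n = 2 per group, limma adjusted p = 0.79), which was 2.19 if CD26+ replicate 2 was left out. SMARCD1, an accessory subunit, had 48.0 and 14.5 against 97.2 and 1223. In these genes the CD26− signals and that of CD26+ replicate 1 were low, and the separation in SMARCD1 fell short of 2-fold in 1 of the pairs.

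ARID1B, a DNA-binding subunit of the BAF form, was represented by a pair of probe sets that align to the same bases of chromosome 6 (157099085 to 157099659) on opposite strands. The one on the strand of the gene, 1566991_at, had signals of 16.6 and 14.9 against 87.4 and 848, a log2 difference of 2.87 ± 1.06. The one on the other strand, 1566990_x_at, had 268 and 272 against 806 and 2873, a log2 difference of 2.53 ± 1.08. Without CD26+ replicate 2 these were 1.74 and 1.34. Both were at least 2-fold higher in all 4 pairs. The signal of 1566990_x_at, on the strand opposite the gene, cannot be assigned to ARID1B. Against this, ARID2, a subunit of the PBAF form (1553349_at, chromosome 12, 46230727 to 46235821), had 727 and 604 on the CD26− arrays against 139 and 37.1 on the CD26+ arrays, a log2 difference of −3.10 ± 1.21, which was −1.61 if CD26+ replicate 2 was left out.

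SMARCC2, a scaffold subunit, went both ways. Its probe set 201320_at, aligned to 56556081 to 56583270 of chromosome 12, had signals of 567 and 584 against 1296 and 1685, a log2 difference of 1.46 ± 0.84. The probe set 1561973_at, aligned to 56577132 to 56583267, had 99.3 and 189.9 against 21.4 and 50.8, a log2 difference of −2.23 ± 0.84. Both kept a gap of 2-fold in all 4 pairs, so no direction can be given for the gene. SMARCA4, the catalytic ATPase, had 79.2, 76.6, 20.8 and 426 with 208793_x_at and 246, 157, 79.1 and 89.3 with 217656_at. SMARCE1 had 1113, 2139.8, 2744 and 965 and overlapped between the groups.

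**Figure D3:**
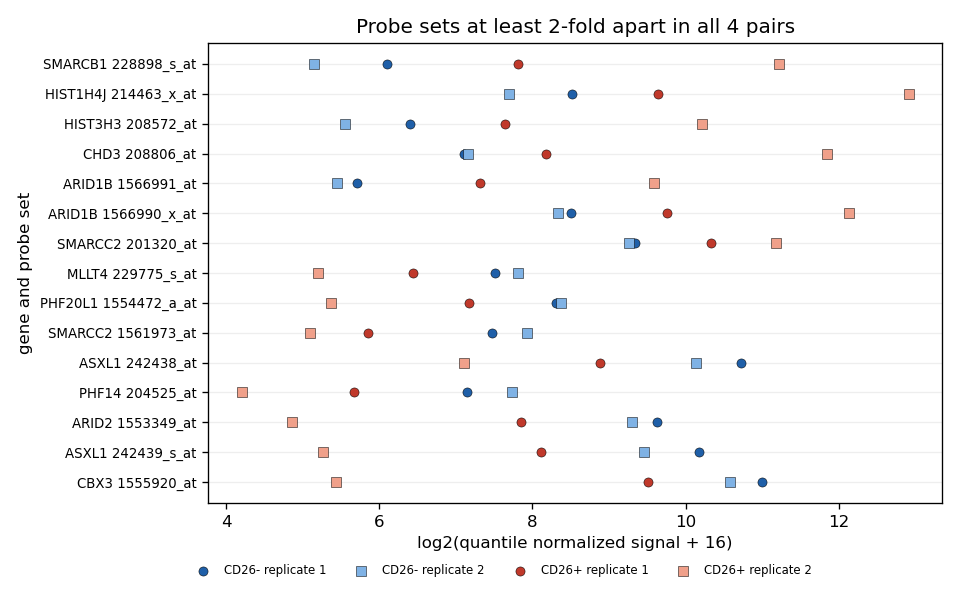
log2(quantile normalized signal + 16) on each of the 4 arrays for the 15 probe sets at least 2-fold apart in every one of the 4 pairings of CD26+ with CD26− arrays, CD26− in blue and CD26+ in red, with circles for replicate 1 and squares for replicate 2. The 7 higher probe sets are at the top, led by SMARCB1 with a log2 difference of 3.89, and the 8 lower ones end with CBX3 at −3.32; in each of the 15 CD26+ replicate 2 was the array farthest from the CD26− arrays.

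In all, 7 member probe sets were at least 2-fold higher in all 4 pairs (6.31% of members, 2.13% of all probe sets, 4.38% of the listed ones) and 8 were at least 2-fold lower (7.21%, 2.53% and 8.66%). The listing pair is 1 of the 4, so these counts are not free of the choice. Among other remodelers, CHD3, the ATPase of the NuRD complex (208806_at), had signals of 70.4 and 93.6 against 187 and 2401, a log2 difference of 2.89 ± 1.37, which was 1.05 if CD26+ replicate 2 was left out. CHD1L, a remodeler of DNA repair (212539_at), gave 1481 and 2154 against 3233 and 2548, above both CD26− arrays, with a log2 difference of 0.98 ± 0.82 that was −0.02 with arrays centred. Its 1556988_s_at gave 657, 1198, 1810.0 and 628, with overlap and a log2 difference of −0.05. SMARCA1, an ISWI ATPase (203875_at), gave 856, 1288, 2467 and 809.5, highest on CD26+ replicate 1 and lowest on CD26+ replicate 2. In the signals the groups overlapped for CHD5, ARID4A, ARID5B and SMARCAL1. CHD5 gave 23.1, 158, 141 and 759.8, ARID4A 129.9, 416, 264 and 4548, ARID5B 68.3, 14.3, 17.3 and 503 and SMARCAL1 271, 642, 553 and 69.4. SMARCD3, a tissue-restricted SWI/SNF subunit, gave 58.2 and 88.6 against 131 and 273.

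The 26 probe sets of histone methylation enzymes and their partners were grouped by symbol alone. CD26+ replicate 1 was at least 2-fold above CD26− replicate 2 for 4 of them and below it for 6. Over all probe sets these shares were 13.1% and 14.3%. CD26+ replicate 2 was at least 2-fold above CD26− replicate 2 for 7 and below it for 8, beside 36.3% and 32.1% of all probe sets. ASXL1, a partner of the BAP1 deubiquitinase that acts on histone H2A, measured 1797 and 1159.7 on the CD26− arrays against 371 and 253 on the CD26+ arrays with 242438_at (chromosome 20, 30947287 to 30947869), a log2 difference of −2.44 ± 0.98 (SE, n = 2 per group, limma adjusted p = 0.79). Its 242439_s_at, at the same position, gave 1162 and 683 against 175 and 61.1, a log2 difference of −3.13 ± 1.19. Without CD26+ replicate 2 these were −1.55 and −1.71. ASXL2 gave 638 and 385 against 162 and 440.0, where CD26+ replicate 2 was above CD26− replicate 2. ASXL3, on the contrary, gave 16.4 and 20.3 against 51.8 and 138.

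Polycomb repressive complex PRC2 methylates histone H3 through EZH2 or EZH1 and needs SUZ12 and EED. EZH2 (203358_s_at) had signals of 5382, 1814, 1891 and 6361. It was listed as lower, yet CD26+ replicate 1 differed from CD26− replicate 2 by 0.05 on the log2 scale, and the high arrays were CD26− replicate 1 and CD26+ replicate 2. Its log2 difference of 0.50 ± 1.15 was −0.55 with arrays centred on their medians and −0.67 without CD26+ replicate 2. EED, outside the member rule, had 4803, 1457, 2294 and 11030 with 209572_s_at, where the same 2 arrays were high, and 228, 147.6, 85.6 and 35.8 with 210656_at, where CD26+ replicate 2 was lowest. EZH1 (203249_at) had 412 and 293 against 184 and 109, a log2 difference of −1.62 ± 1.05, which was −0.53 if CD26+ replicate 2 was left out. SUZ12 (1566191_at) had 359, 72.3, 48.1 and 100.3, highest on CD26− replicate 1, and aligned to a pair of places on chromosome 17, as did the probe set of its pseudogene SUZ12P, so they cannot be assigned with certainty.

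MLL and MLL3, which methylate histone H3 at active genes, were listed as lower with each of their probe sets. MLL had 317, 253, 102 and 92.2 with 220546_at and 504, 258, 42.1 and 1336 with 1565436_s_at, so CD26+ replicate 2 was the lowest array with the first and the highest with the second. MLL3 (222414_at) had 1478, 1725, 537 and 3121, a log2 difference of 0.18 that was −0.29 in the deposited values, −0.99 with arrays centred and −1.31 if CD26+ replicate 2 was left out. The other probe set listed for MLL3, 235859_at, aligned to the strand opposite the gene and gave 91.0, 19.8, 25.6 and 461. Its signal cannot be assigned to MLL3. SETD6 had 1321, 838, 492 and 118 with 219751_at, with both CD26+ arrays below both CD26− arrays, also with 1554555_a_at. MLLT6, an MLL fusion partner with a reader domain, gave 2144 and 2502 against 4519.8 and 6293, a log2 difference of 1.45 ± 0.88. MLLT4 matched the rule by name but encodes afadin, a protein of cell junctions. Its 229775_s_at aligned to the strand opposite the gene and gave 103 and 171 against 41.2 and 56.9, and 230622_at gave 121, 34.0, 51.4 and 182. Among PRDM genes, which encode SET-like domains with zinc fingers, PRDM11 gave 178 and 195 against 378 and 231 and PRDM15 gave 53.2, 65.3, 23.7 and 637. SETD4 gave 47.3, 50.3, 16.2 and 466 from the strand opposite the gene. SETD3, the actin histidine methyltransferase, gave 87.5, 80.1, 185 and 125, and SETDB2 gave 141, 221, 310.2 and 490.2 with 238684_at, both with CD26+ replicate 1 above the CD26− arrays.

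Lysine demethylases remove these methyl groups. KDM5B, which acts on marks of active promoters, had 4 listed probe sets. They gave 219, 747, 635 and 570.3 with 201548_s_at, 891, 1956, 1984 and 441 with 201549_x_at and 741, 1967, 2052 and 74.0 with 211202_s_at. With these 3, CD26− replicate 1 was 2-fold or more below CD26+ replicate 1 while CD26− replicate 2 lay close to it, at log2 differences of −0.10, 0.02 and 0.06. The last, 201547_at, gave 74.0, 11.0, 22.5 and 109. KDM6B, which removes the Polycomb mark, had 195, 319.6, 438 and 3727 with 41386_i_at, 498, 906, 1039.8 and 13728 with 41387_r_at and 64.8, 277, 173 and 3114 with 1556066_at. All 3 were highest on CD26+ replicate 2, with log2 differences of 2.44 to 2.52, and of 0.41 to 0.71 without it. KDM1A (1555897_at) had 51.5, 134, 128 and 481 and aligned to the strand opposite the gene, so its signal cannot be assigned to KDM1A. KDM5A gave 34.6, 121, 13.6 and 111. Among the JmjC proteins JMJD4 gave 89.8, 214, 388 and 81.8 and JMJD6 gave 26.4, 147, 123 and 62.3, and in these 3 genes too the groups overlapped in the signals.

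CHD2, a remodeler, had 233, 404, 1509 and 52.8 with 1554014_at, 96.9, 209, 348 and 107 with 1554015_a_at and 250.4, 80.2, 67.5 and 259.8 with 244443_at. CD26+ replicate 1 was the highest array with the first and the second of these and the lowest with the last. CHD9 was lowest on CD26+ replicate 1 with all 3 of its probe sets, 239654_at giving 383, 505, 158 and 751. Of 22 genes with more than 1 listed probe set, 4 had probe sets listed in opposite directions, which were CHD2, KDM5B, MYST1 and SMARCC2.

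**Figure D4:**
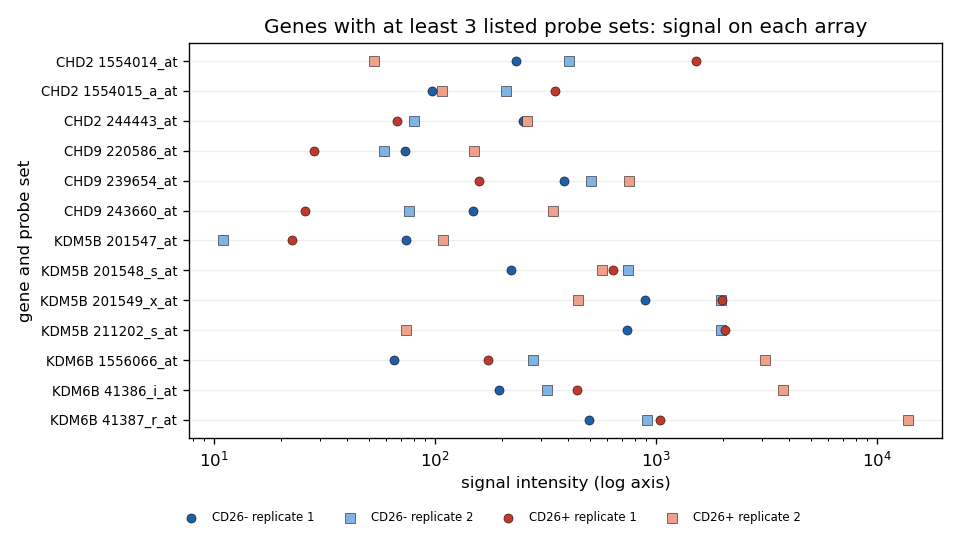
Signal intensity (log axis) on each of the 4 arrays for the probe sets of CHD2, CHD9, KDM5B and KDM6B, the genes with at least 3 listed probe sets, CD26− in blue and CD26+ in red, with circles for replicate 1 and squares for replicate 2. For 3 KDM5B probe sets CD26− replicate 2 lies beside CD26+ replicate 1, as 1956 and 1984 with 201549_x_at, and for KDM6B CD26+ replicate 2 lies far to the right, up to 13728.

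Histone deacetylases of class IIa, which shuttle between nucleus and cytoplasm, were HDAC5 and HDAC7. HDAC5 had 262 and 523 against 721 and 1892 with 202455_at, a log2 difference of 1.72 ± 0.99, which was 0.82 if CD26+ replicate 2 was left out. Its 229408_at gave 28.2, 168, 164 and 946, and HDAC7 gave 18.2, 69.9, 63.4 and 307, so that in both CD26+ replicate 1 and CD26− replicate 2 were close in signal. HDAC11 had 121 and 191 against 247 and 722 with 219847_at, and 194, 324, 667 and 207 with 227679_at, where the groups overlapped. SIRT2, an NAD-dependent deacetylase found largely in the cytoplasm, had 290.1 and 132.9 against 103 and 96.6, a log2 difference of −1.40, which was −0.56 if CD26+ replicate 2 was left out.

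The acetyltransferases were all of the MYST family. MYST1, which acetylates histone H4, had 627 and 1019.6 against 1406 and 3930.5 with 221820_s_at and 131, 91.1, 53.8 and 836 with 214885_at. MYST4 had 109 and 201 against 232 and 880.3. MYST3 had 73.2, 71.5, 24.9 and 1028, lowest on one CD26+ array and highest on the other, with a log2 difference of 1.04, which was −1.02 if CD26+ replicate 2 was left out. All 4 probe sets of this family were at least 2-fold higher on CD26+ replicate 2 than on CD26− replicate 2. Of all probe sets 36.3% were so too, and 53.8% in the deposited values. Of the 4, 2 had been listed as lower, and none was 2-fold from CD26− replicate 2 on CD26+ replicate 1.

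DNMT3A, which methylates DNA de novo, measured 643 and 813 on the CD26− arrays against 1712 and 2014 on the CD26+ arrays, a log2 difference of 1.53 ± 0.84 (SE, n = 2 per group, limma adjusted p = 0.79), which was 1.09 if CD26+ replicate 2 was left out and 0.65 with arrays centred. In the signals the arrays of a group lay close together in this gene. On the normalized scale CD26+ replicate 2 was 0.87 (log2) above CD26+ replicate 1, which fell just short of 2-fold above CD26− replicate 2. DNMT3L, its partner without enzyme activity, had 18.9, 97.8, 109 and 217, where CD26− replicate 2 lay near CD26+ replicate 1.

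Readers of histone marks went both ways. CBX3, the heterochromatin protein HP1γ (1555920_at), had signals of 2241 and 1606 against 660.5 and 71.3, a log2 difference of −3.32 ± 1.48, which was −1.28 if CD26+ replicate 2 was left out. CBX5, the related HP1α, gave 806, 773, 1750.2 and 55.9, highest on CD26+ replicate 1 and lowest on CD26+ replicate 2. CBX6, a Polycomb reader, gave 749 and 227 against 1655 and 1631, a log2 difference of 1.98 ± 0.93. CBX2, another one, gave 157, 45.2, 554 and 161. PHF14 gave 72.6 and 157 against 17.0 and 7.30, a log2 difference of −2.50 ± 0.93 that was −3.83 with a pseudocount of 1, −1.45 with 64 and −1.76 without CD26+ replicate 2. PHF20L1, which binds methylated lysine, gave 222 and 281 against 77.4 and 67.9 with 1554472_a_at and 473, 667, 199.9 and 667 with 231967_at. PHF3 had 552, 1466, 1138 and 987 and overlapped between the groups. Of the ING proteins, which bind methylated histone H3 for acetyltransferase and deacetylase complexes, ING3 gave 774, 321, 296 and 408, ING4 gave 336, 518, 938 and 348 with 48825_at and 142, 88.0, 367 and 378 with 218234_at, both with overlap on the normalized scale, and ING5 gave 2116, 860.0, 1049 and 552 with 228287_at. BRD7, a bromodomain subunit of PBAF, gave 245 and 153 against 107 and 68.9. PHF23 gave 976, 760.0, 2090.5 and 443 and PHF7 gave 136, 182, 65.7 and 1498, each with the CD26+ arrays at both ends.

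High mobility group proteins bend DNA or bind its minor groove. HMGB1 (224734_at) had signals of 5044, 1824, 1045 and 319, with both CD26+ arrays below both CD26− arrays, a log2 difference of −2.68 ± 1.20, which was −1.37 if CD26+ replicate 2 was left out. The probe set aligned to 3 places of the genome, so its signal cannot be assigned to HMGB1 alone. HMGA2, a fetal chromatin protein that many tumors express, had 241, 200.1, 92.0 and 215, and HMGB2 had 14.0, 27.8, 29.7 and 689.8.

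The position of the probe sets was not part of the choice. The alignments of members listed as higher spanned a median of 4498 bases and those listed as lower 3533 bases. With the histones, short genes, left out, the medians were 12529 and 3587 bases, and over all listed probe sets with 1 symbol 8430 and 7250 bases. Without histones the shares under 2000 bases were 29.4% and 34.9%, beside 25.7% and 30.1% over all listed ones. A short span means that the probe set was designed on a small stretch of the locus, which can be an intron, an exon or an untranslated end, and the files do not say which. Of the 86 members whose strand could be set against that of the RefSeq gene, 80 lay on the same strand and 6 on the opposite one.

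Of 129 further chromatin genes outside the rule, 38 were in the list, with 53 probe sets, 22 listed as higher and 31 as lower. limma called 0 of them at an adjusted p under 0.05. Their median log2 difference was −0.37, beside −0.15 for the listed probe sets, 0.01 for the members and 0.11 over all probe sets. At least 2-fold gaps in all 4 pairs were held by 1 higher and 2 lower of the 53. Such gaps had 2.13% and 2.53% of all probe sets and 4.38% and 8.66% of the listed ones. In all 4 pairs 1 of the 4 probe sets of PCGF2, a Polycomb subunit, was at least 2-fold higher (203793_x_at, 235 and 317.5 against 720.5 and 954), and PBRM1, a PBAF subunit with 84.4 and 74.0 against 20.7 and 29.1, was at least 2-fold lower. So was 1 of the MORF4L2 probe sets, for a subunit of acetyltransferase complexes, 243683_at with 1331 and 1283 against 530.2 and 14.4, while 243857_at gave 1245, 953, 444 and 398. The linker histone H1FX had 1168, 1044, 5491 and 402, highest on CD26+ replicate 1 and lowest on CD26+ replicate 2.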

How the data were processed

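Gene expression of FACS-sorted HT29 cells was profiled on 4 Affymetrix U133 Plus 2.0 arrays, with 2 for each of CD26+ and CD26− cells. The deposited value of a probe set is a signal intensity on a linear scale. The authors' software was Genespring GX with Genomatix Genome Analyzer, and how probes were summarized and arrays scaled is not given in the sources used here. A deposited list for 1 pair of arrays supplied the gene symbols, Entrez identifiers and alignments (for several, the one with the highest match), while its ratio, signed fold score and log2 fold columns, computed by the authors, were not used. It holds 11430 probe sets, and for 11429 of them the signals of CD26+ replicate 1 and CD26− replicate 1 differ by a factor of 2 or more. The list's header gives its CD26+ array the number 2, so the identity of the CD26+ arrays is not settled, and the sample labels were followed. All 84 symbols matched an Entrez identifier of the GRCh38.p14 annotation, and 21 now have another name.
Quantile normalized signals were log2 transformed after adding 16. Without 62 controls, 54613 probe sets entered limma 3.58.1 (R 4.3.3), in a two-sided test at 0.05 after Benjamini-Hochberg adjustment. An exact permutation test of 2 against 2 cannot reach 0.05 (smallest p 0.33) and was not used. The fit was tested on simulated data with known changes. The number of arrays limits the precision.
The members, lists and families were chosen with earlier results of these data known. Named genes are those at least 2-fold apart in all 4 pairs, the 3 with the highest mean value of each family, all histone, DNMT, TET, EZH, SUZ12, HMGA, SIRT and HDAC members, genes with at least 3 probe sets and the member nearest the threshold. Others were chosen after their values were seen. Not every member gene is reported here. Where no probe set is named, the one of highest mean represents the gene. All value columns were matched to samples.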

Additional observations from a re-analysis of the deposited data

How the results depend on the processing

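No alternative but one changed the 0 limma calls among the members. Leaving out 1 array gave 0 to 57 calls, the 57 (51.4% of members, 42.4% of all probe sets) without CD26+ replicate 1, which leaves CD26+ replicate 2, the array that stands apart, as the only CD26+ array and assumed to vary like the CD26− arrays. There were also 0 calls with deposited values, median centring, 1 or 64 as pseudocount, a floor of 100 on the mean signal, a trended and robust prior, and the replicate block, which called 0 members and 1 of all probe sets. Replicates of the same number had deviations that correlated at 0.038, so the number was not treated as a pairing. The methods' t-test gave 1 member at its unadjusted threshold, the SMARCC2 probe set 1561973_at, and 0 after Benjamini-Hochberg adjustment.
Members at least 2-fold lower on CD26+ replicate 1 than on CD26− replicate 2 numbered 25 with the values as deposited, against 15. These were 22.5% and 13.5% of the members, beside 18.5% and 14.3% of all probe sets. The higher share of the calls was 45.7% against 58.3%. Members at least 2-fold higher on CD26+ replicate 2 numbered 26 without _x_at and _s_at probe sets, which leaves 83 members, against 41. These were 31.3% and 36.9% of the members, beside 36.8% and 36.3% of all probe sets in the same settings. The higher share of these calls was 68.7% with the values as deposited and 38.2% with arrays centred, against 51.2%. The median of all probe sets was 0.11 in the groups' comparison, 0.63 as deposited and −0.06 with arrays centred. Of 53 named genes, 10 changed sign without CD26+ replicate 2, CHD2, EZH2, HIST1H3E, HIST1H3F, HIST1H3H, HIST1H4E, HIST3H2A, KDM5B, MLL3 and MYST3, and 11 with the other 3 arrays normalized without it, an alternative added after seeing the data. HIST1H2BG went from 2.22 to −1.43 and HDAC11 from 1.02 to −0.17 with the probe set brightest without CD26+ replicate 2. The cause of these changes was not tested.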
